A study of Homo sapiens with 24 samples.

Results

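The comparison described here is of SKBr3 cells made senescent with bleomycin and of untreated SKBr3 cells of the same age in culture. SKBr3, also written SKBR3, is an established HER2-amplified breast cancer line with a mutant p53. Of the 24 libraries of the series, 6 belong to this comparison by their labels: 3 from cells given bleomycin at 10 µmol/L, with a refeed on day 3 and collection on day 7, and 3 from untreated cells collected on day 7. For the untreated cells the labels name no refeed, so effects of the drug and of the refeed cannot be told apart. The measurement was mRNA sequencing, and the deposited table holds 1 raw count for each of 14493 genes in each library, of which 13802 passed the filter on low counts and were tested. The other 18 libraries, 3 in each of 6 groups, are untreated cells at day 0 and cells treated with doxorubicin, palbociclib (spelled Palboclib in the labels), alisertib, ND-646 or TVB-3166. All 24 libraries come from this 1 line, and the labels do not say whether the replicates of a group were separate cultures, so p-values measure the spread between these samples only. RNA was extracted from whole cultures, in which a change in the share of cells and a change within each cell cannot be told apart.

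Bleomycin is a glycopeptide antibiotic that, bound to iron and oxygen, cuts both strands of DNA. Cells that survive such damage can leave the cell cycle, a state called therapy-induced senescence, which the study describes as not always permanent. In this state they stay metabolically active and enlarge their lysosomes. They also release cytokines, proteases and growth factors, together called the senescence-associated secretory phenotype (SASP). Damaged DNA that reaches the cytosol can also be sensed as foreign, which switches on interferon genes. The comparison asks which of these programmes the bleomycin-treated SKBr3 cells carried at day 7.

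The libraries held between 31791397 and 44316330 counts untreated and between 32314679 and 32702078 counts after bleomycin, and levels are given below as CPM, counts scaled to a common library size, always in the order of replicates 1, 2 and 3. The first principal component, with 76.3% of the variance, put all 3 bleomycin libraries on one side and all 3 untreated libraries on the other. The second, with 8.37%, spread the bleomycin libraries from 30.7 in replicate 1 through -1.48 in replicate 3 to -21.3 in replicate 2, against -4.97 to 1.56 in the untreated libraries. The markers of a HER2-amplified luminal line were present: ERBB2 stood at 7449.9, 6585 and 6298 CPM untreated, with KRT8 at 4599.7, 3499 and 4001 CPM, and the luminal hormone receptor genes ESR1 and PGR were not analysed here. Of markers of other cell types, 1 of 10 for fibroblasts, 2 of 11 for leukocytes and 2 of 6 for endothelium were in the table, and their values are given with the last results.

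Bleomycin raised 1130 genes (8.19% of the 13802 tested) and lowered 763 (5.53%) by at least 2-fold at an adjusted p under 0.05 (edgeR quasi-likelihood test, Benjamini-Hochberg adjustment over all genes tested). At the same threshold with no minimum fold, 3089 genes (22.4%) rose and 3205 (23.2%) fell, 45.6% in all, and these shares are the background against which the gene lists are read. Libraries of the groups did not overlap in 27.3% of genes that were higher and 29.7% that were lower, whatever their p. Of the 1893 genes called at 2-fold (13.7%), 59.7% were higher. That split depended on the scaling: with library totals alone 930 were higher and 1037 lower (47.3% higher), and the median of all genes was -0.13 on the log2 scale. Among genes that met the rule below, PIGR, LCN2 and PARP14 had the largest rises, and the gene lists with the lowest medians were those of the cell cycle.

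**Figure D1:**
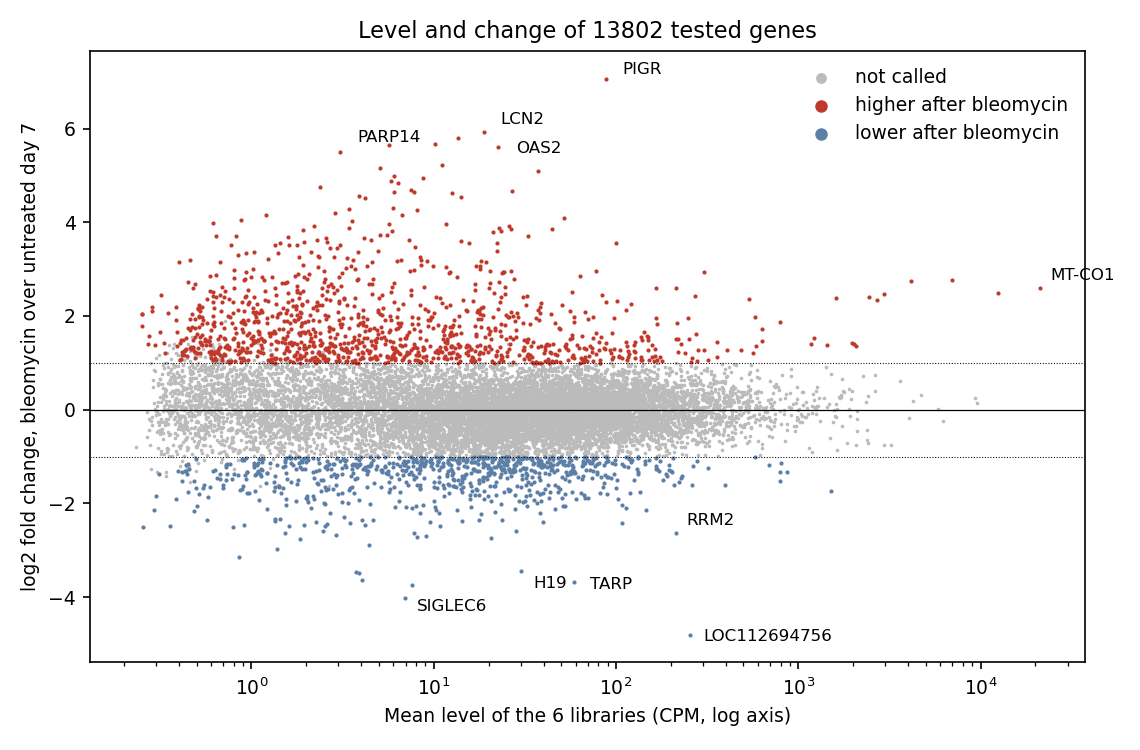
Each point is 1 of the 13802 tested genes, with its mean level over the 6 libraries (CPM, log axis) against its log2 fold change of bleomycin over untreated day 7; red points (1130) and blue points (763) passed an adjusted p under 0.05 with a change of at least 2-fold, and dotted lines mark 2-fold. Rises reached 7.07 on the log2 scale at PIGR, and falls reached -4.80 at LOC112694756.

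The 10 largest rises, among 2806 genes that passed the test, averaged at least 1 CPM and showed no overlap between groups, were led by PIGR, the receptor that carries polymeric antibodies across epithelia. PIGR stood at 0.685, 2.15 and 1.15 CPM in the untreated libraries and 58.2, 309 and 156 CPM after bleomycin (log2 fold change 7.07 ± 0.68, adjusted p = 0.000118). The lowest treated library was many times the highest untreated one, but the treated libraries themselves were far apart, with replicate 2 highest. LCN2, which encodes the iron-binding acute-phase protein lipocalin 2, showed the same order of treated libraries, at 0.376, 1.21 and 0.266 CPM in the untreated libraries and 17.5, 62.1 and 31.3 CPM after bleomycin (log2 fold change 5.93 ± 0.60, adjusted p = 0.000155). APOL1, an interferon-inducible apolipoprotein, was far more even, at 0.376, 0.402 and 0.385 CPM in the untreated libraries and 18.3, 21.7 and 19.8 CPM after bleomycin (log2 fold change 5.67 ± 0.19, adjusted p = 1.63e-06). Its untreated libraries lay within 0.376 and 0.402 CPM, and its treated ones within 18.3 and 21.7 CPM.

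PARP14 and OAS2, both interferon-inducible, are described with their list below. Other leading genes were MRGPRE, an orphan G-protein-coupled receptor, at 0.199, 0.115 and 0.0592 CPM untreated and 7.37, 5.89 and 4.795 CPM treated, the carboxylesterase gene CES1 at 0.287, 0.488 and 1.01 CPM untreated and 13.4, 30.5 and 21.1 CPM treated, the acute-phase gene SAA1 at 0.287, 0.402 and 0.118 CPM untreated and 7.64, 7.67 and 14.1 CPM treated and the mucin gene MUC20 at 1.48, 2.81 and 2.1002 CPM untreated and 44.99, 97.9 and 74.1 CPM treated. The 4 had log2 fold changes of 5.49, 5.23, 5.16 and 5.10 and adjusted p between 2.00e-05 and 5.77e-05, and the lack of overlap between groups was part of the rule that picked them. MRGPRE and SAA1, like APOL1 and LCN2 above, had few counts in the untreated libraries, so the size of their rises is uncertain. The same holds for other genes below that stood under 1 CPM untreated. MUC20 has a near-identical pseudogene, MUC20P1, which rose by 4.94, so reads may be split between them and the level of either is uncertain.

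The 10 largest falls came from 3117 genes that met the same rule. The first, LOC112694756, went from 526, 487 and 469 CPM to 37.6, 7.67 and 7.97 CPM (log2 fold change -4.80 ± 0.58, adjusted p = 0.000330). This gene model overlaps ALDOA, a glycolytic enzyme gene that stood at 1428, 1102 and 1269 CPM untreated and 1567, 1641 and 1314 CPM treated (log2 fold change 0.25, adjusted p = 0.143), so how the counting divided reads between them is uncertain. H19, an imprinted long non-coding RNA, fell from 64.7, 40.3 and 59.6 CPM to 7.0998, 5.15 and 2.902 CPM (log2 fold change -3.45 ± 0.30, adjusted p = 7.23e-05). SIGLEC6, a sialic acid-binding lectin gene, went from 18.9, 5.54 and 14.8 CPM to 1.58, 0.356 and 0.489 CPM, its groups apart as the rule required. The overlapping T-cell receptor gamma models TARP and TRGC2 fell by 3.69 and 3.48 on the log2 scale, and cannot be read as independent of each other. CBLN2, a synaptic organiser gene, the cadherin gene CDH10, TBATA, the actin-like gene ACTL8 and CNIH2, an auxiliary subunit gene of glutamate receptors, had log2 fold changes between -3.74 and -2.88. In 8 of the 10, all but TBATA and H19, bleomycin replicate 2 was the lowest of the 6 libraries.

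Type I and type III interferons act through receptors and JAK kinases on transcription factors, IRF9 among them, which bind a short promoter element, the interferon-stimulated response element (ISRE). The genes they switch on encode antiviral enzymes, membrane proteins and regulators. Promoters of 3 interferon effector genes are shown because they hold this element. Each is the 150 bases before the gene's RefSeq start in GRCh38.p14, written 5′ to 3′ in the direction of transcription, with matches on either strand to GAAA, any 2 bases and GAAA again in capitals. PARP14, an ADP-ribosyltransferase gene, lies at chr3:122680689-122680838, plus strand, ISG15, a ubiquitin-like modifier gene, at chr1:1013347-1013496, plus strand, and BST2, which encodes the virus-tethering protein tetherin, at chr19:17405631-17405780, minus strand; ISG15 and BST2 each hold 2 overlapping matches.
PARP14: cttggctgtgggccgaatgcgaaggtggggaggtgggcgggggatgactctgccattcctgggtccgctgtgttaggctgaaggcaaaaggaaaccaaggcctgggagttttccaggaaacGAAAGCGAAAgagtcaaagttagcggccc
ISG15: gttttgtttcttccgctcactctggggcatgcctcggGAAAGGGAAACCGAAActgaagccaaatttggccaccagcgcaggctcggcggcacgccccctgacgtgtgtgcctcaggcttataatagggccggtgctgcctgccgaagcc
BST2: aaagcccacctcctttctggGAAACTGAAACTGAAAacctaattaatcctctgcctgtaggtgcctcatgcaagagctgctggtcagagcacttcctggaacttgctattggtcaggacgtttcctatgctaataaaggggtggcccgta
The first bases of the matches lie at -29 in PARP14, at -113 and -107 in ISG15, and at -130 and -124 in BST2, counted from the gene start. Among 18 interferon effector genes with a promoter window (250 bases before to 50 after the start), 14 (77.8%) held such a match, against 286 of 10698 tested genes (2.67%). The share was 7 of 17 (41.2%) for antigen presentation genes and 1 of 15 for genes of the interferon signalling chain. A match is a run of letters and not a shown binding site.

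Of 36 interferon effector genes, 22 were in the table and tested, and 18 of the 22 (81.8%) rose, 17 of them by at least 2-fold, while none fell. Their median log2 fold change was 3.01, against 0.00 over all genes tested, and their summed level went from between 747 and 974 CPM untreated to between 2399 and 2738 CPM. PARP14 stood at 0.486, 0.631 and 0.296 CPM in the untreated libraries and 21.5, 25.4 and 32.6 CPM after bleomycin (log2 fold change 5.80 ± 0.27, adjusted p = 5.90e-06). OAS2, which makes the oligoadenylates that activate RNase L, stood at 0.531, 1.03 and 1.18 CPM in the untreated libraries and 51.5, 33.5 and 46.6 CPM after bleomycin (log2 fold change 5.61 ± 0.28, adjusted p = 7.76e-06). In both genes the groups were far apart and the treated libraries close to each other. PARP9, the partner of the ubiquitin ligase DTX3L, was at 0.376, 0.545 and 0.207 CPM untreated and 10.8, 9.29 and 13.6 CPM treated (log2 fold change 4.88, adjusted p = 1.73e-05), and MX1, a dynamin-like antiviral GTPase, at 0.464, 0.918 and 0.769 CPM untreated and 15.04, 8.22 and 14.5 CPM treated (log2 fold change 4.15, adjusted p = 4.58e-05). PARP14, PARP9 and MX1 had few counts in the untreated libraries, so the size of their rises is uncertain. The gene of the modifier ISG15 rose 7.89-fold, from 1.59, 1.64 and 2.01 CPM to 17.97, 8.96 and 14.4 CPM. For OAS2, MX1 and ISG15 bleomycin replicate 2 was the lowest treated library, though above all untreated ones. BST2, chosen for its promoter after its values were seen, was at 1.57, 2.09 and 2.75 CPM untreated and 15.6, 17.6 and 19.9 CPM treated.

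The 4 effector genes that did not pass were MX2 (log2 fold change 0.69, adjusted p = 0.206), USP18, a protease that removes ISG15 and blocks the receptor (-0.35, 0.125), ISG20 (-0.28, 0.0810) and IFITM2 (-0.15, 0.323). With library totals only ISG20 was called lower (-0.41, adjusted p = 0.0251), and against untreated day 0 IFITM2 was called lower (-0.46, adjusted p = 0.00846). IFITM1 and IFITM3, close relatives of IFITM2, were called higher, so the split of reads within this family is uncertain. Another 14 effector genes, among them IFIT1, were not analysed here. Every alternative tried left between 16 and 18 members higher.

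**Figure D2:**
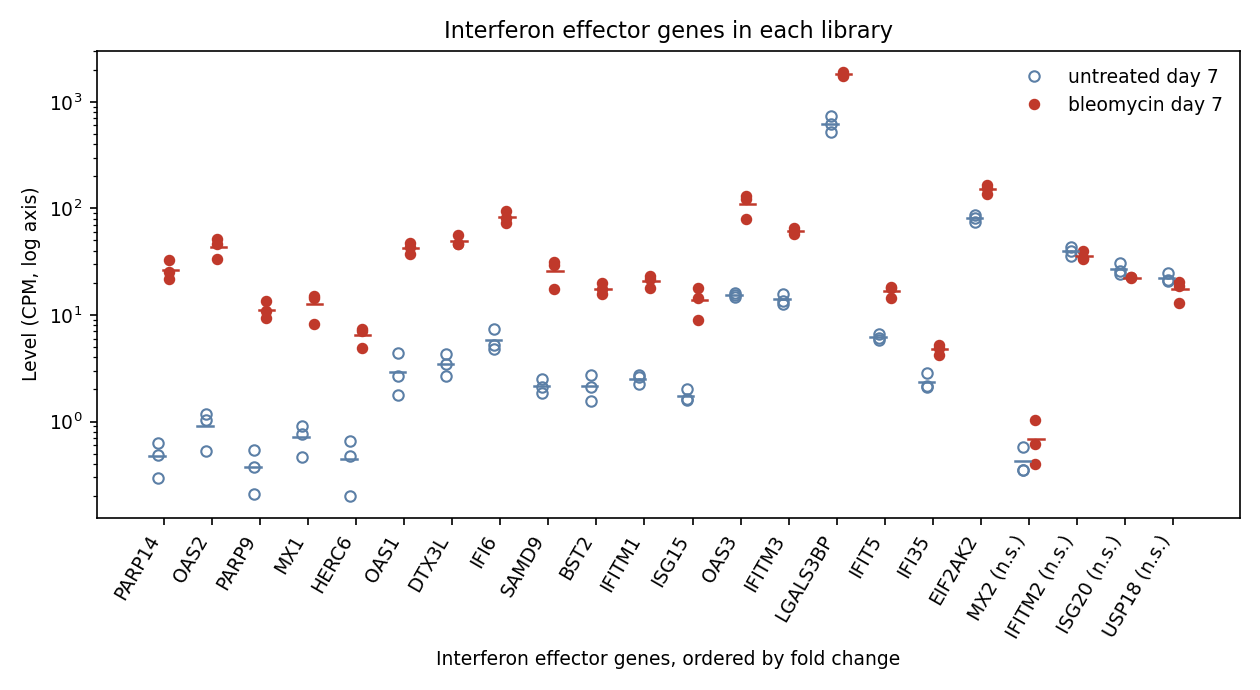
The 22 tested interferon effector genes are ordered by fold change, with the level in each library on a log axis (CPM); open blue circles are the 3 untreated day-7 libraries, filled red circles the 3 bleomycin libraries, short lines the group means, and n.s. marks the 4 genes with an adjusted p above 0.05. In 18 genes the red and blue circles are apart, from 5.80 on the log2 scale at PARP14 down to 0.93 at EIF2AK2.

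Of 21 tested genes of the chain that leads to these effectors, 15 rose and none fell, with a median of 0.70. IRF9, the DNA-binding subunit of the interferon-activated complex, was at 4.75, 6.599 and 6.92 CPM untreated and 47.3, 46.6 and 47.4 CPM treated (log2 fold change 2.96 ± 0.15, adjusted p = 8.69e-06), IRF1 rose by 2.79 and IRF7, the factor that amplifies interferon production, by 2.34. Treated and untreated libraries were wide apart in all 3. IFNGR1, a receptor subunit for interferon gamma, rose 2.099-fold. The kinase gene JAK2 had a log2 fold change of 0.31 and did not pass (adjusted p = 0.126). The genes of interferon beta and lambda themselves (IFNB1, IFNL1, IFNL2 and IFNL3) were not analysed here.

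Among 13 tested genes of nucleic acid sensing, 8 rose and none fell, with a median of 0.53. DHX58, a regulator of RNA sensing, was at 1.13, 1.43 and 1.15 CPM untreated and 8.28, 6.47 and 8.98 CPM treated (log2 fold change 2.68 ± 0.22, adjusted p = 5.16e-05), and RIGI, the sensor of viral RNA ends, at 3.76, 4.22 and 3.79 CPM untreated and 16.6, 10.6 and 17.1 CPM treated (log2 fold change 1.91 ± 0.21, adjusted p = 0.000202). SAMHD1, which degrades the building blocks of DNA, rose 2.04-fold and the RNA sensor IFIH1 1.76-fold. The sensor adaptor STING1 went from 4.599, 3.21 and 3.28 CPM to 6.49, 4.92 and 6.63 CPM (adjusted p = 0.0267), a call lost without untreated replicate 2 or 3 or bleomycin replicate 1 or 3, and the kinase gene TBK1 had a log2 fold change of 0.20 (adjusted p = 0.165). The cytosolic DNA sensor gene CGAS was not analysed here.

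Antigen presentation genes rose together: 16 of 20 tested members were higher, 13 by at least 2-fold, and none was lower (median 1.47). NLRC5, the activator of MHC class I genes, was at 0.663, 0.832 and 0.621 CPM untreated and 5.96, 6.602 and 6.96 CPM treated (log2 fold change 3.20 ± 0.22, adjusted p = 2.38e-05). HLA-B, a class I heavy chain, was at 4.69, 6.86 and 5.71 CPM untreated and 26.99, 37.2 and 39.6 CPM treated (log2 fold change 2.59 ± 0.19, adjusted p = 3.70e-05), while its light chain gene B2M rose 1.93-fold, from 279, 343 and 310.3 CPM to 533, 663 and 605 CPM. The immunoproteasome subunit genes PSMB9 and PSMB8 rose 5.83-fold and 5.63-fold. HLA genes share long stretches of sequence, so their individual levels are uncertain. CD274, the gene of the immune checkpoint ligand PD-L1, was at 2.39, 2.21 and 3.58 CPM untreated and 5.38, 5.53 and 9.41 CPM treated (log2 fold change 1.32 ± 0.29, adjusted p = 0.00525). The 4 members that did not pass were stress ligands of natural killer cells, among them ULBP2 (log2 fold change -0.57, adjusted p = 0.133). The ligand gene ULBP1 had a log2 fold change of 1.62.

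The secreted factors that define the SASP were only in part measurable, since 22 of 33 chemokine and cytokine genes, including IL6, IL1A, IL1B, CXCL8, CXCL1 and CCL20, were not analysed here. Of the 11 tested, 10 rose and none fell (median 2.62), and their summed level went from between 59.3 and 80.1 CPM to between 331 and 363 CPM. GDF15, a stress-induced member of the TGF-beta family, was at 1.86, 5.45 and 2.13 CPM untreated and 36.3, 63.1 and 31.2 CPM treated (log2 fold change 3.80 ± 0.42, adjusted p = 0.000231). CCL22, a chemokine for regulatory T cells, was at 1.66, 2.24 and 1.54 CPM untreated and 16.9, 18.9 and 13.5 CPM treated (log2 fold change 3.18 ± 0.21, adjusted p = 2.10e-05). Replicate 2 was the highest treated library for both. IL32 and TNFSF10, the gene of the death ligand TRAIL, rose 7.79-fold and 7.78-fold. IL15 was the member that did not pass (log2 fold change 0.95, adjusted p = 0.0803), and it passed without bleomycin replicate 2 (1.26, adjusted p = 0.0239).

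Of 42 genes for secreted proteases, growth factors and matrix modulators, 28 were tested, of which 18 rose and none fell (median 0.91). The rest, including MMP1, MMP3, MMP10, SERPINB2 and PLAT, were not analysed here. LCN2 led, as given above, followed by the gelatinase gene MMP2, at 0.553, 0.344 and 0.355 CPM untreated and 6.797, 13.3 and 16.8 CPM treated (log2 fold change 4.84 ± 0.39, adjusted p = 5.03e-05). INHBA, a subunit of activin, was at 0.133, 0.0574 and 0.148 CPM untreated and 1.68, 0.712 and 2.199 CPM treated (log2 fold change 3.71, adjusted p = 0.000779) and the urokinase gene PLAU at 0.575, 0.603 and 0.266 CPM untreated and 3.16, 2.07 and 3.97 CPM treated (log2 fold change 2.65, adjusted p = 0.000657). Both had few counts in the untreated libraries. CCN2 showed how far replicates could differ, at 27.9, 5.77 and 8.25 CPM untreated and 20.6, 51.8 and 38.4 CPM treated, and did not pass (adjusted p = 0.0591), though it did without untreated replicate 1 (log2 fold change 2.40, adjusted p = 0.00315) or bleomycin replicate 1 (1.66, adjusted p = 0.0288).

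NF-kB, the transcription factor family behind much of the SASP, induces its own inhibitors. Of 22 tested subunit and feedback genes, 17 rose and none fell (median 0.79). ICAM1, an adhesion molecule for leukocytes, was at 4.11, 5.22 and 4.703 CPM untreated and 60.6, 51.03 and 71.7 CPM treated (log2 fold change 3.71 ± 0.16, adjusted p = 5.48e-06), and TRAF1 and BIRC3, adaptor and inhibitor genes of TNF signalling, rose 11.4-fold and 9.04-fold. TNFAIP3, the feedback inhibitor A20, was at 6.15, 4.25 and 6.21 CPM untreated and 20.7, 16.9 and 28.5 CPM treated (log2 fold change 1.99 ± 0.23, adjusted p = 0.000257). NFKBIA, the classical inhibitor gene, rose 1.697-fold. NFKB1, NFKBIB, BCL3, TRAF2 and NFKBIZ did not pass, with log2 fold changes between -0.16 and 1.22. NFKBIZ passed without bleomycin replicate 1 (1.65, adjusted p = 0.0059).

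**Figure D3:**
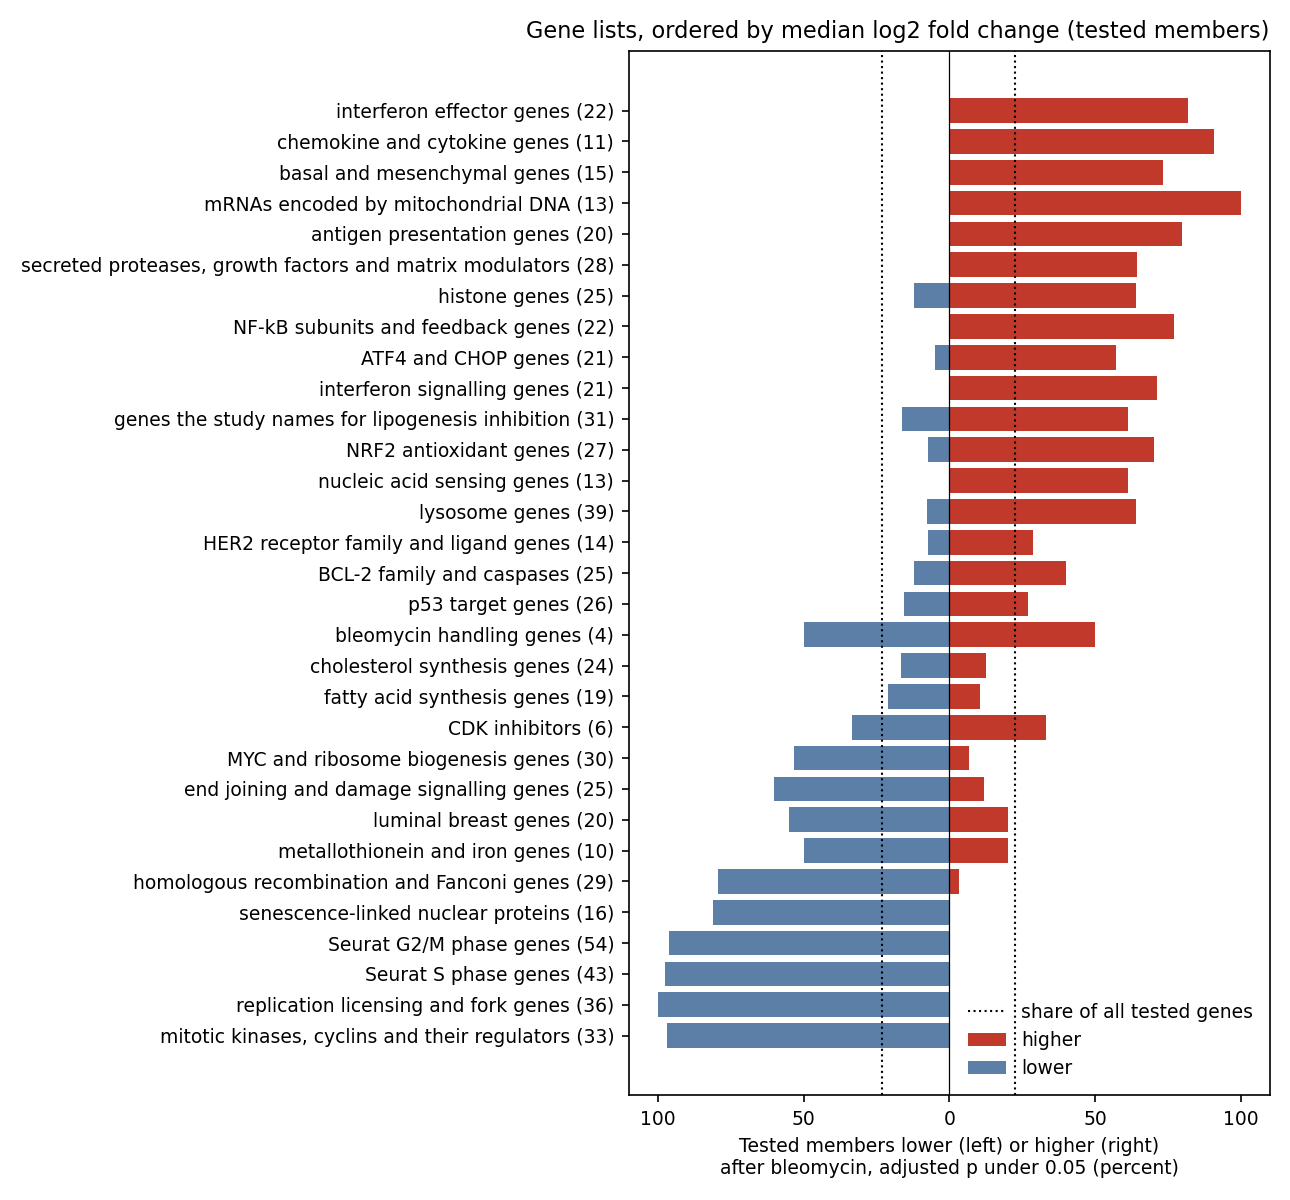
Bars give the percent of tested members of each gene list that were higher (red, right) or lower (blue, left) after bleomycin at an adjusted p under 0.05, with the number of tested members in parentheses and the lists ordered by median log2 fold change; dotted lines mark the shares over all tested genes, 22.4% higher and 23.2% lower. Interferon effector, chemokine and cytokine, and basal and mesenchymal genes stand at the top and cell cycle lists at the bottom, where none of the S phase, G2/M, replication or mitotic members was higher.

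The replication and mitotic genes are controlled in large part by E2F factors in S phase and by the MuvB complex, which binds the cell cycle genes homology region (CHR), in G2 and mitosis. The promoters of PCNA, the sliding clamp of DNA polymerases, and of PLK1, a kinase that drives entry into mitosis, show these elements in capitals: for PCNA, a match to TTTCCCGC read on the opposite strand, and for PLK1, TTTGAA. PCNA was chosen after its values were seen. The stretches lie at chr20:5126623-5126772, minus strand, and chr16:23678739-23678888, plus strand, of the same build.
PCNA: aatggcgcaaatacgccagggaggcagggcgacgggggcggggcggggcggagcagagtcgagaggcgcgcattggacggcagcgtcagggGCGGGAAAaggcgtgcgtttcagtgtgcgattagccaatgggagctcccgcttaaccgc
PLK1: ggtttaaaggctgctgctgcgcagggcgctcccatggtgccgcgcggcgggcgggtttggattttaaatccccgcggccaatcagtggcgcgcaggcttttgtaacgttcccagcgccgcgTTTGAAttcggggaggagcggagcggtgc
The matches begin at -59 in PCNA and at -29 in PLK1. An E2F match (TTTCCCGC or TTTGGCGC, either strand) was found in 15 of 31 promoter windows of replication genes (48.4%) and 14 of 33 of S phase genes (42.4%), against 3.68% of all tested genes. TTTGAA was found in 31 of 45 windows of G2/M genes (68.9%) and 15 of 27 of mitotic regulators (55.6%), against 9.47% of all tested genes. Replication and S phase lists share many genes, as do the G2/M and mitotic lists, so their shares are not independent. PCNA itself fell from 183, 162 and 211 CPM to 60.1, 40.8 and 62.2 CPM and PLK1 from 118, 93.4 and 106 CPM to 36.9, 19.3 and 30.1 CPM.

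**Figure D4:**
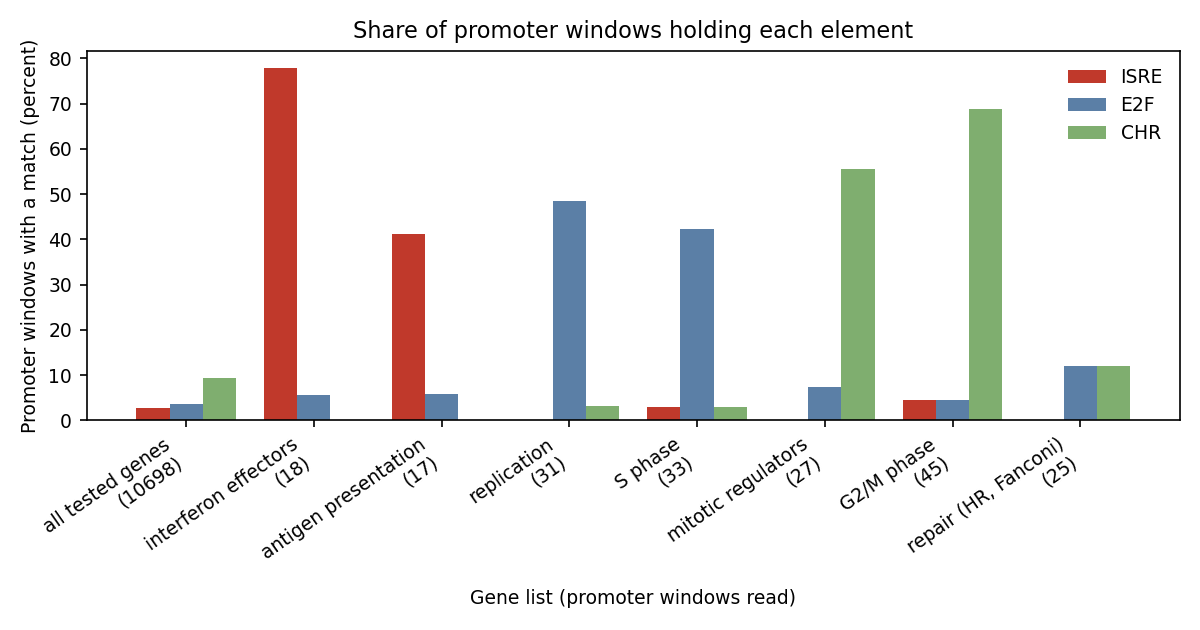
Bars give the percent of promoter windows (250 bases before to 50 after the RefSeq gene start, GRCh38.p14) that hold the letters of the ISRE (red), E2F (blue) or CHR (green) element on either strand, for all tested genes and for 7 gene lists, with the number of windows in parentheses. ISRE letters are in 77.8% of interferon effector windows, E2F letters in 48.4% of replication windows and CHR letters in 68.9% of G2/M windows.

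Of the S phase genes of the Seurat package's cell cycle lists, 42 of 43 fell and none rose, 31 by at least 2-fold (median -1.34), and of the G2/M genes 52 of 54 fell and none rose (median -1.32). RRM2, the subunit of ribonucleotide reductase that limits DNA synthesis, went from 414, 302 and 387 CPM to 88.4, 24.6 and 64.4 CPM (log2 fold change -2.64 ± 0.38, adjusted p = 0.000715). CDCA7 and CCNE2, the cyclin E2 gene, fell 5.59-fold and 5.32-fold. In a list of replication licensing and fork genes 36 of 36 fell, led by the polymerase subunit gene POLE2, at 13.97, 12.5 and 13.5 CPM untreated and 2.86, 0.939 and 2.63 CPM treated (log2 fold change -2.64 ± 0.33, adjusted p = 0.000369). GINS2 and CDC45, parts of the replicative helicase, fell 4.71-fold and 4.54-fold. The replication list shares many genes with the S phase list, RRM2, GINS2 and CDC45 among them, so these lists are not independent.

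Mitotic kinases, cyclins and their regulators fell in 32 of 33 cases, each by at least 2-fold (median -1.49). Many of them, such as AURKB and CENPE, are also in the G2/M list, so these lists are not independent. MYBL2, a transcription factor of the mitotic programme, went from 198, 139.8 and 182 CPM to 64.8, 17.9 and 43.4 CPM (log2 fold change -2.04 ± 0.37, adjusted p = 0.00217). AURKB, the Aurora B kinase gene, fell 3.86-fold, the kinetochore motor gene CENPE 3.84-fold and PIMREG, first among the G2/M genes, 5.22-fold. The proliferation markers MKI67 and TOP2A were at 343, 242 and 244 CPM untreated and 151, 53.3 and 105 CPM treated, and at 737, 813 and 767 CPM untreated and 489, 239 and 416 CPM treated. CCNA2 and CCNB1, the cyclins of S phase and of mitosis, fell 3.26-fold and 2.98-fold. In all of these, bleomycin replicate 2 was the lowest library. The summed S phase level was between 1453 and 2210.0 CPM after bleomycin and between 4233 and 5026 CPM untreated. Under the alternatives tried, 41 to 43 S phase and 51 to 52 G2/M members fell.

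Of 6 tested inhibitors of cyclin-dependent kinases, 2 rose and 2 fell. CDKN2B, which encodes p15, an inhibitor of CDK4 and CDK6, rose 5.303-fold, from 8.25, 10.6 and 10.6 CPM to 47.5, 36.3 and 72.1 CPM (log2 fold change 2.41 ± 0.24, adjusted p = 0.000141). CDKN1A, which encodes p21, rose 2.96-fold, from 10.8, 9.78 and 14.9 CPM to 33.7, 32.1 and 39.1 CPM (log2 fold change 1.57 ± 0.17, adjusted p = 0.000201). CDKN2C, the p18 gene, fell 2.53-fold and CDKN2A, the p16 gene, stood at 12.6, 11.1 and 12.4 CPM untreated and 8.88, 6.505 and 9.74 CPM treated (adjusted p = 0.0342). The CDKN2A call was lost without any 1 of the untreated libraries or without bleomycin replicate 2. CDKN1B, the p27 gene, had a log2 fold change of -0.13 (adjusted p = 0.420), and CDKN1C was not analysed here.

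Targets of p53 were also counted: of 26 tested, 7 rose, 4 fell and 15 did not pass, with a median of 0.09 and shares of 26.9% higher and 15.4% lower against 22.4% and 23.2% of all genes. TP53INP1 was at 2.63, 4.73 and 3.34 CPM untreated and 6.43, 12.98 and 11.5 CPM treated (log2 fold change 1.53 ± 0.30, adjusted p = 0.00319). BBC3, the pro-apoptotic PUMA gene, rose 2.18-fold and the growth arrest genes GADD45A and GADD45B 2.15-fold and 1.92-fold. MDM2, the ubiquitin ligase gene that p53 induces, stood at 122, 114 and 123 CPM untreated and 97.1, 126 and 122 CPM treated, with overlapping groups (log2 fold change -0.05, adjusted p = 0.713), and its sign was not stable. The 4 members that fell were 1 or 2 without untreated replicate 1 or 3 or bleomycin replicate 2 or 3.

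Of 29 tested genes of homologous recombination and the Fanconi pathway, 23 fell and 1 rose (median -0.98), and leaving out single libraries or changing settings gave 20 to 24. EXO1, a nuclease that resects breaks, went from 34.98, 30.4 and 36.8 CPM to 12.9, 4.595 and 11.4 CPM (log2 fold change -1.82 ± 0.31, adjusted p = 0.00153). RAD54L, a DNA translocase gene, fell 2.96-fold and the helicase gene BRIP1 2.92-fold. Some members, EXO1 and BLM among them, are also in the S phase list. RAD50, part of the break-sensing complex, was the member that rose (log2 fold change 0.44, adjusted p = 0.00618). Among 25 genes of end joining and damage signalling, 15 fell and 3 rose (median -0.34). CHEK1, the S phase checkpoint kinase gene, fell 2.75-fold, PAXX 2.61-fold, and H2AX, the histone variant phosphorylated around breaks, went from 78.05, 46.9 and 61.6 CPM to 30.96, 24.3 and 20.8 CPM (log2 fold change -1.30 ± 0.20, adjusted p = 0.00102). PARP2 fell 2.07-fold. The core end-joining kinase gene PRKDC did not pass (log2 fold change -0.34, adjusted p = 0.0504), but did with the replicate block (adjusted p = 0.0416) or without bleomycin replicate 3 (adjusted p = 0.0311). The 3 that rose were 1 without untreated replicate 2 and 0 without untreated replicate 3.

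Loss of lamin B1 is a widely used mark of senescence. LMNB1 stood at 80.3, 65.9 and 79.6 CPM in the untreated libraries and 21.5, 10.7 and 19.9 CPM after bleomycin (log2 fold change -2.11 ± 0.23, adjusted p = 0.000205), a fall with no overlap. Of 16 tested genes for nuclear proteins linked to senescence 13 fell and none rose (median -1.01), among them the chromatin regulator UHRF1 (3.84-fold), the methyltransferase gene EZH2 (3.09-fold) and HMGB2, at 35.2, 37.8 and 42.5 CPM untreated and 17.2, 10.3 and 15.9 CPM treated. LMNA, HMGA1 and CBX1 did not pass, at -0.18, -0.16 and -0.08. Against untreated day 0 LMNA was called lower (-0.46, adjusted p = 0.0187). With library totals only, LMNA (-0.31, adjusted p = 0.0244) and HMGA1 (-0.29, adjusted p = 0.0326) were called lower. Several of these genes are also cell cycle genes, so the list is not independent of the S phase list.

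Of 25 tested histone genes, 16 rose and 3 fell (median 0.90). The linker histone gene H1-3 was at 0.995, 0.775 and 0.266 CPM untreated and 2.12, 6.699 and 3.85 CPM treated (log2 fold change 2.60 ± 0.51, adjusted p = 0.00318), and H2BC4, H4C8 and H1-2 rose 5.14-fold, 3.98-fold and 3.84-fold. H1-2 stood at 31.9, 25.05 and 30.1 CPM untreated and 101, 138 and 95.96 CPM treated. The variants H2AZ2 and H2AZ1 and the repressive variant MACROH2A1 were the members that fell, by 1.31, 0.96 and 0.49 on the log2 scale. Replication-dependent histone mRNAs normally lack a poly(A) tail, the labels name an mRNA kit while the methods name a total RNA kit, and the part of polyadenylation in these values was not tested. Copies of histone genes share sequence, so single members are uncertain.

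The mRNAs made from mitochondrial DNA rose in 13 of 13 cases at an adjusted p under 0.05 (median 1.72), and their share of all counts was 2.93, 1.22 and 1.36% untreated and 10.0, 8.28 and 6.63% after bleomycin. MT-CO1, a subunit of cytochrome oxidase, was at 9199.7, 4367 and 4523 CPM untreated and 44555, 36654 and 27463 CPM treated (log2 fold change 2.59 ± 0.31, adjusted p = 0.000337), and MT-CO2, MT-ND4 and MT-ND5, further subunits of the respiratory chain, rose 6.71-fold, 5.64-fold and 5.53-fold. MT-ND3 overlapped between groups, at 472, 188 and 190.1 CPM untreated and 1030.0, 555 and 464 CPM treated, and its call was lost without untreated replicate 2 or 3 or bleomycin replicate 1. This result depended on the reference and on single libraries: against untreated cells of day 0, 2 of 13 passed, without untreated replicate 3, 7, and without bleomycin replicate 1, 8. Leaving these transcripts out gave 1082 genes higher and 766 lower over all genes.

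Lysosomal genes were higher in 25 of 39 tested cases and lower in 3 (median 0.45). CTSS, a cathepsin also used in antigen processing, was at 0.4201, 0.746 and 0.592 CPM untreated and 7.37, 11.2 and 15.7 CPM treated (log2 fold change 4.30 ± 0.34, adjusted p = 4.77e-05). SQSTM1, the autophagy receptor p62, went from 333, 362 and 329.6 CPM to 1079.7, 1463 and 1198 CPM (log2 fold change 1.87 ± 0.13, adjusted p = 2.24e-05), and the hydrolase genes FUCA1 and IDS rose 2.82-fold and 2.58-fold. GLB1, the source of senescence-associated beta-galactosidase activity, stood at 168, 164 and 155 CPM untreated and 196, 189 and 196 CPM treated (log2 fold change 0.26 ± 0.08, adjusted p = 0.0261), and with library totals only, its log2 fold change was 0.13 (adjusted p = 0.248). The GLB1 call was also lost without untreated replicate 2 or 3 or bleomycin replicate 1 or 3. The 3 lower members were 1 without untreated replicate 3 and 5 without bleomycin replicate 1.

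Of 27 tested antioxidant genes under NRF2, 19 rose and 2 fell (median 0.61), and 1 fell with the replicate block or without any 1 library but bleomycin replicate 1. FTH1, the ferritin heavy chain that stores iron, was at 767, 1127 and 791 CPM untreated and 3369, 6313 and 3888 CPM treated (log2 fold change 2.34 ± 0.25, adjusted p = 0.000194), and HMOX1, heme oxygenase, at 36.3, 34.9 and 30.6 CPM untreated and 143, 212 and 152 CPM treated (log2 fold change 2.32 ± 0.16, adjusted p = 2.17e-05). The transporter gene ABCC3 and the reductase gene AKR1B10 rose 4.304-fold and 3.48-fold. NQO1, a standard NRF2 target, did not pass (log2 fold change 0.39, adjusted p = 0.121), although it did when the fit took the replicate number as a block (0.42, adjusted p = 0.0141) or without untreated replicate 2 (0.65, adjusted p = 0.00577). Of 10 tested metallothionein and iron genes 5 fell and 2 rose (1 without untreated replicate 3), with the metallothionein gene MT1X going from 39.4, 30.8 and 37.8 CPM to 6.02, 5.18 and 5.01 CPM (log2 fold change -2.74 ± 0.15, adjusted p = 8.69e-06) and MT2A falling 3.76-fold. The iron exporter gene SLC40A1 fell 2.05-fold, and the transferrin receptor gene TFRC had a log2 fold change of -0.64 (adjusted p = 0.0209), a call lost without untreated replicate 1 or 3. Of 4 genes that handle bleomycin 2 rose and 2 fell. BLMH, the hydrolase that inactivates bleomycin, stood at 109, 104 and 111 CPM untreated and 82.6, 70.7 and 85.9 CPM treated (log2 fold change -0.44 ± 0.10, adjusted p = 0.00537), and MVP, the major vault protein gene, rose 2.44-fold while the efflux pump gene ABCG2 fell 2.02-fold.

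Genes under ATF4 and CHOP, the factors of the integrated stress response, rose in 12 of 21 tested cases and fell in 1 (median 0.72). PPP1R15A, which restores translation after stress, was at 11.3, 10.2 and 11.2 CPM untreated and 36.3, 50.6 and 44.1 CPM treated (adjusted p = 2.57e-05). CHAC1, DDIT3 (which encodes CHOP) and ATF3 rose 3.46-fold, 3.35-fold and 3.29-fold. ATF4 itself had a log2 fold change of 0.11 (adjusted p = 0.498) and PSPH, of serine synthesis, was the member that fell, a call lost without untreated replicate 2 or 3 or bleomycin replicate 2 or 3. Replicate 2 was the highest treated library for PPP1R15A, CHAC1 and DDIT3.

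In the BCL-2 family and the caspases, 10 of 25 tested genes rose and 3 fell (median 0.16). CASP4, the caspase that senses cytosolic lipopolysaccharide, was at 3.67, 4.91 and 3.49 CPM untreated and 27.3, 37.4 and 31.4 CPM treated (log2 fold change 3.00 ± 0.18, adjusted p = 1.50e-05), and BMF and PMAIP1, both pro-apoptotic, rose 5.46-fold and 3.14-fold. The survival gene MCL1 rose 1.45-fold. BCL2L1, the gene of BCL-XL, had a log2 fold change of 0.29 (adjusted p = 0.0632), but passed with the replicate block (0.30, adjusted p = 0.0191) or without untreated replicate 1 (adjusted p = 0.0158), while BCL2 stood at 1.77, 2.61 and 2.899 CPM untreated and 1.78, 0.939 and 1.405 CPM treated (adjusted p = 0.0566). BCL2 passed without untreated replicate 1 (adjusted p = 0.0437) or bleomycin replicate 1 (adjusted p = 0.0298).

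Lipid synthesis genes, the target of other drugs in the series, were near the background shares or below against untreated day 7. Of 24 cholesterol synthesis genes, 3 rose and 4 fell (median -0.07), and of 19 fatty acid synthesis genes 2 rose and 4 fell (median -0.13), and with the replicate block 4 of the latter rose. FASN, the fatty acid synthase gene, stood at 6359, 5699 and 5268 CPM untreated and 6138, 6449 and 4977 CPM treated (adjusted p = 0.918) and ACACA, which encodes acetyl-CoA carboxylase 1, at 166, 152 and 147 CPM untreated and 169, 130.5 and 155 CPM treated (adjusted p = 0.818), both with overlapping groups, while against day 0 FASN was higher by 0.56. Against day 0, 8 of the cholesterol genes and 7 of the fatty acid genes were higher, and with library totals only 7 of each list were lower and 1 of each higher. With all 24 libraries in one fit 0 cholesterol genes were higher. Without bleomycin replicate 1, 7 fatty acid genes fell, and without untreated replicate 3, 1 cholesterol gene and 1 fatty acid gene rose, the latter also without untreated replicate 1 or bleomycin replicate 2. ACACB, which encodes acetyl-CoA carboxylase 2, was at 67.4, 57.5 and 64.04 CPM untreated and 18.9, 6.96 and 14.8 CPM treated (log2 fold change -2.21 ± 0.29, adjusted p = 0.000470). ELOVL6 and THRSP fell 1.97-fold and 1.83-fold and ACSL1 rose 1.797-fold, but against untreated cells of day 0 THRSP was higher after bleomycin, by 1.25 on the log2 scale, and the THRSP call was lost without untreated replicate 2 or bleomycin replicate 2 or 3. Among the cholesterol genes ACAT2, MVK and EBP fell 1.899-fold, 1.83-fold and 1.69-fold and MSMO1 rose 1.35-fold. Of 31 tested genes that the study names for lipogenesis inhibition, 19 rose and 5 fell, and 3 fell without bleomycin replicate 3 or against day 0. The study chose that list on libraries of this series, and part of it by comparison with other senescence inducers, bleomycin among them, so it is not independent evidence.

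ERBB2, the receptor gene amplified in this line, stood at 7449.9, 6585 and 6298 CPM untreated and 6790.3, 5226 and 5134 CPM treated (log2 fold change -0.25, adjusted p = 0.189). With the replicate block it passed (-0.25, adjusted p = 0.0394), and without bleomycin replicate 1 it was -0.41 (adjusted p = 0.0277). Of 14 tested genes of this family and its ligands, 4 rose (28.6%) and 1 fell (7.14%), against 22.4% and 23.2% of all genes. The number that fell was 4 without bleomycin replicate 1 and 2 with the replicate block. EGFR rose 1.74-fold, from 141, 148 and 143 CPM to 236, 259.5 and 256 CPM (log2 fold change 0.80 ± 0.08, adjusted p = 0.000161), and ERBB3 1.34-fold, while ERBB4 fell 1.93-fold. The ligand gene HBEGF and the feedback inhibitor gene ERRFI1 rose 3.13-fold and 1.77-fold.

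Luminal genes were lower in 11 of 20 tested cases and higher in 4 (median -0.35). The keratin genes KRT19 and KRT8 fell 1.81-fold and 1.68-fold, KRT8 to 2877, 1919 and 2389 CPM, and the transcription factor gene TFAP2B 3.93-fold, while ELF3, an epithelial transcription factor gene, rose 2.31-fold. Of 28 basal and mesenchymal genes only 15 were tested, and 11 of the 15 were higher and none lower (median 1.88). The integrin gene ITGB3 was at 0.177, 0.143 and 0.177 CPM untreated and 2.39, 5.31 and 5.99 CPM treated (log2 fold change 4.75 ± 0.44, adjusted p = 9.90e-05), and the stress keratin genes KRT17 and KRT16 rose 11.5-fold and 9.68-fold. ITGB3 had few counts in the untreated libraries. The rest of the list was not analysed here, including vimentin (VIM), the keratin genes KRT5 and KRT14, the cadherin genes CDH1 and CDH2, ZEB1 and TWIST1. The counts therefore cover only part of the basal and mesenchymal markers.

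Genes of MYC and of ribosome biogenesis fell in 16 of 30 cases and rose in 2 (median -0.31). BOP1, a processing factor of the large ribosomal subunit, was at 83.1, 73.4 and 89.95 CPM untreated and 53.6, 42.7 and 43.95 CPM treated (log2 fold change -0.81 ± 0.12, adjusted p = 0.000784) and UTP20 fell 1.51-fold, while MXD1 and MXI1, antagonists of MYC, rose 1.93-fold and 1.61-fold. Without untreated replicate 3 the list held 9 falling members, and the MXI1 call was lost without untreated replicate 1 (0.56, adjusted p = 0.0535). MYC itself did not pass (log2 fold change -0.26, adjusted p = 0.199), but did without untreated replicate 2 (-0.43, adjusted p = 0.0118).

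Doxorubicin, which also damages DNA, was given at 10 nmol/L with the same refeed and day of collection. Drug and dose both differ from bleomycin and cannot be told apart, and the values below come from a direct comparison of the 3 bleomycin with the 3 doxorubicin libraries. At 2-fold, 184 genes were higher after bleomycin (1.33% of 13862 tested) and 202 lower (1.46%), 386 or 2.78% in all. With no minimum fold the shares were 6.54% higher and 5.53% lower, 12.1% in all. This count rested on single libraries: it was 58 without doxorubicin replicate 1, 75 without doxorubicin replicate 3, 185 without bleomycin replicate 2 and 586 without bleomycin replicate 1.

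Interferon effector genes were higher after bleomycin than after doxorubicin in 14 of 22 cases and lower in none. OAS2 stood at 52.8, 33.6 and 47.1 CPM after bleomycin and 11.4, 16.5 and 10.2 CPM after doxorubicin, on a scale set over 15 libraries, with a log2 difference of 1.81 ± 0.21 (adjusted p = 0.00496). MX1 and IFI6 differed by 1.77 (adjusted p = 0.0148) and 1.46 (adjusted p = 0.00172). Antigen presentation genes were higher in 10 of 20 cases, among them HLA-B (adjusted p = 0.00605), and chemokine and cytokine genes in 6 of 11. S phase genes were lower in 28 of 43 cases and G2/M genes in 26 of 54. RRM2 stood at 90.5, 24.7 and 65.1 CPM after bleomycin and 181, 169.7 and 189 CPM after doxorubicin (log2 difference -1.58 ± 0.35, adjusted p = 0.0252). Genes under ATF4 and CHOP were higher in 13 of 21 cases. LMNB1 was lower by 1.33 (adjusted p = 0.0117). CDKN2B and HMOX1 did not pass in this comparison, at -0.51 and -0.21. With 1 library left out, the counts ran from 5 to 17 for interferon effectors, 3 to 10 for antigen presentation, 3 to 35 for S phase, 0 to 44 for G2/M and 0 to 14 for the ATF4 list.

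Palbociclib, an inhibitor of CDK4 and CDK6 that stops the cycle without damaging DNA directly, was given at 1 µmol/L, again with drug and dose not to be told apart. Bleomycin differed from it at 2-fold in 1100 genes (7.95% of 13829 tested), 647 higher (4.68%) and 453 lower (3.28%). With no minimum fold, 15.9% were higher and 14.7% lower, 30.6% in all. Of 43 S phase genes 3 were higher and 4 lower, and of 54 G2/M genes none was higher and 3 were lower. With the replicate number as a block these became 3 and 8, and 8 and 15. RRM2 had a log2 difference of -0.18 ± 0.36 (adjusted p = 0.736). Interferon effectors were higher after bleomycin in 20 of 22 cases, NF-kB genes in 17 of 22, antigen presentation genes in 13 of 20, chemokine and cytokine genes in 9 of 11 and mitochondrially encoded mRNAs in 13 of 13, with no member lower. OAS2 stood at 1.07, 1.64 and 1.11 CPM after palbociclib (log2 difference 5.14 ± 0.23, adjusted p = 4.37e-06) and ICAM1 differed by 2.42 (adjusted p = 1.17e-05). CDKN1A was 34.6, 32.1 and 39.5 CPM after bleomycin and 27.2, 26.6 and 25.3 CPM after palbociclib (log2 difference 0.44, adjusted p = 0.0148). FN1, a matrix protein gene, was lower after bleomycin by 1.73 (adjusted p = 0.00142), though higher than in untreated cells.

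**Figure D5:**
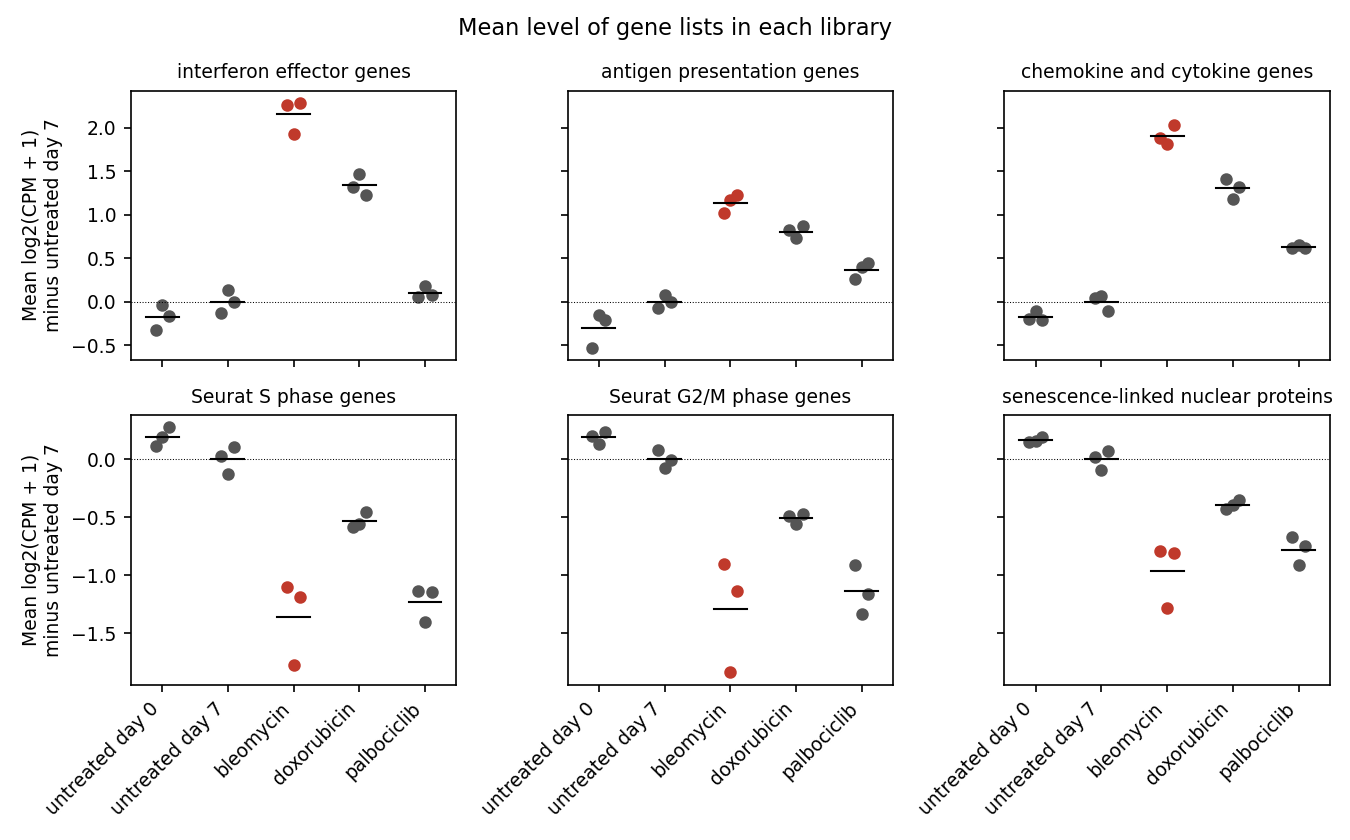
Points are single libraries (3 a group) and lines group means of the average log2(CPM + 1) over a list's tested genes, minus the untreated day-7 mean, for 6 lists in untreated, bleomycin (red), doxorubicin and palbociclib cells. Interferon effectors lie between 1.93 and 2.29 after bleomycin, 1.23 and 1.47 after doxorubicin, and 0.05 and 0.18 after palbociclib, while S phase genes lie between -1.78 and -1.11, -0.59 and -0.45, and -1.40 and -1.14.

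Between untreated day 7 and day 0, 27 of 13636 genes (0.198%) differed at 2-fold, 23 higher (0.169%) and 4 lower (0.0293%), and 80 (0.587%) at any fold, 0.389% higher and 0.198% lower. At 2-fold a fit with the replicate block called 179 and DESeq2 120. COL1A1 was the fibroblast marker in the table, at 15.2, 10.4 and 11.2 CPM untreated and 8.34, 9.61 and 8.43 CPM treated (adjusted p = 0.0473, and 0.0615 with the replicate block), a call also lost without untreated replicate 1 or 3 or bleomycin replicate 1 or 3. Of the leukocyte markers, CD68, which many cells carry in lysosomes, rose 7.63-fold and CSF1R 4.51-fold, and of the endothelial markers CDH5 went from 2.43, 5.45 and 3.93 CPM to 33.5, 26.9 and 44.4 CPM and VWF from 0.442, 0.574 and 0.177 CPM to 1.01, 0.777 and 0.825 CPM (adjusted p = 0.0488, and 0.0526 with the block). The VWF call was lost with DESeq2 too (adjusted p = 0.0816), and without any 1 library other than untreated replicate 2. The defining markers PTPRC, CD3D, PECAM1 and PDGFRA were not analysed here, and whether rare cells of these types took part was not tested. Across 12188 protein-coding genes, the median log2 fold change was -0.08 in the shortest of 5 classes and 0.05 in the longest (Pearson r = 0.031, Spearman rho = 0.0727, across genes of the same 6 libraries, which are not independent).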

How the data were processed

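Libraries were sequenced paired-end on a NovaSeq, and per the labels the authors aligned reads to GRCh37 with HISAT2 and quantified them with StringTie. Versions, and the counting settings and use of strand, are not given in the sources used here. The deposited table holds raw counts, at least 1 in every library, so a gene at 0 in any library is not in it. Genes were filtered with filterByExpr, scaled by TMM and tested with edgeR 4.0.16 (R 4.3.3) by the quasi-likelihood test on the 6 libraries with group as the only term, with Benjamini-Hochberg adjustment over all tested genes; ± is the standard error. The same test served each direct comparison. On simulated data for bleomycin against untreated day 7, 164 of 200 changed genes among 13802 were recovered, with 11 false calls. Far fewer genes changed there than the 45.6% called in the real comparison, and no shift in composition was simulated. The simulation therefore cannot give the rate of false calls in the real comparison.

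The members and gene lists were chosen with earlier results of these data known. Named genes were the 10 largest rises and falls (adjusted p under 0.05, mean of at least 1 CPM, no overlap), up to 4 leading members a list, members needed to say what did not pass, and a list of key genes; some genes that the rule names are not reported here. Same-numbered bleomycin and untreated libraries deviated weakly together from their group means (correlations 0.166, 0.127 and 0.126). Between libraries of different number the correlations were lower, from -0.130 to 0.00354. The labels do not state that replicate numbers pair libraries, pairing was not tested, and the main fits did not use the numbers. For same-numbered bleomycin and palbociclib libraries the correlations were 0.201, 0.205 and 0.309. Alternatives were DESeq2 1.42.0, other scalings and filters, day 0 as reference, a replicate block, all libraries in one fit, and each replicate left out; the fit without mitochondrial transcripts was added after seeing the data. Cell cycle lists came from Seurat 5.3.0. Promoters are RefSeq windows on GRCh38.p14, matched by NCBI gene ID for 10698 of 13802 tested genes.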

Additional observations from a re-analysis of the deposited data

How the results depend on the processing

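Over all alternatives at 2-fold, between 930 and 1523 genes were higher and between 572 and 1037 lower, and with no minimum fold 3089 and 3205. The replicate block gave 1104 higher and 789 lower, and beyond the calls given with it above it changed no other call of a gene list by over 1.5 times. Against doxorubicin the count ran from 58 to 586 with 1 library left out, and the block gave 457 (correlations of same-numbered libraries -0.0533, 0.0802 and 0.346). Between untreated day 7 and day 0 the main 27 became 179 with the block, 120 with DESeq2 and 0 to 28 with 1 library left out. The difference in median change between the longest and shortest genes was 0.134, and 0.276 with day 0 as the reference. The causes were not tested.

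THRSP, called lower, was called higher with day 0 as the reference (1.25, adjusted p = 0.00402). The other genes that changed sign had not passed. With day 0 as the reference the log2 fold change was 0.212 for ACACA, -0.138 for BCL2L1, 0.0888 for CDKN1B, 0.0374 for MDM2 and 0.279 for MYC. With library totals only it was -0.112 for FASN and -0.0252 for ATF4. With 1 library left out it ran from -0.14 to 0.0671 for ACACA, from -0.0501 to 0.117 for FASN, from -0.122 to 0.0345 for MDM2 and from -0.00256 to 0.194 for ATF4. Genes with no count in any 1 library are not analysed here, which removes most cytokines, and 3 libraries a group limit precision.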

Other observations

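Some gene families that are not lists above were picked after their values were seen, and some of their members are in those lists. All 4 tested apolipoprotein L genes rose, APOL1 by 5.67, APOL6 by 4.08, APOL3 by 3.00 and APOL2 by 0.70 on the log2 scale. The 3 tested guanylate-binding protein genes, interferon-inducible GTPases, rose by 3.46 to 3.96. Of 12 poly(ADP-ribose) polymerase family genes, of which PARP14, PARP9, PARP1 and PARP2 are also members of lists above, 6 rose and 2 fell: PARP14, PARP9 and PARP10, which attach single ADP-ribose units or are inactive, rose by 5.80, 4.88 and 4.03, while PARP1 and PARP2, which respond to DNA breaks, fell by 0.98 and 1.05. Of 13 tested S100A genes 3 rose, 5 fell and 5 did not pass, against 22.4% higher and 23.2% lower over all genes. S100A7 was at 0.265, 0.287 and 0.385 CPM untreated, with few counts, and 5.32, 7.05 and 9.896 CPM treated (log2 fold change 4.57, adjusted p = 2.80e-05). S100A8 and S100A9, the subunits of calprotectin, were each higher by 2.94. S100A4, S100A13, S100A16, S100A6 and S100A14 fell by 1.54, 1.43, 1.60, 0.59 and 0.77.

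Splicing factors of the SR family fell in 9 of 11 cases and rose in none (median -0.82). SRSF2 went from 200.1, 174 and 254 CPM to 55.9, 48.1 and 80.4 CPM (log2 fold change -1.77 ± 0.20, adjusted p = 0.000251), and SRSF7 and SRSF1 fell by 1.39 and 1.18. The CYP1 genes, targets of the aryl hydrocarbon receptor, rose in 3 of 3 cases, CYP1A1 by 2.36 ± 0.59 and CYP1B1 by 1.98 ± 0.30. The untreated libraries were far apart for CYP1A1, at 54.3, 373 and 98.6 CPM. After bleomycin CYP1A1 was lower than after doxorubicin by 1.01 (adjusted p = 0.0119), and its difference from palbociclib did not pass (-0.54, adjusted p = 0.159). The pregnancy-specific glycoprotein genes PSG4, PSG5 and PSG9 rose by 3.66 to 4.51, but they are near-identical copies and their counts are uncertain one by one.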
